A study of Mus musculus with 41 samples.

Results

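The subject is a set of 40 synaptic vesicle and release genes, chosen by name from the 32531 genes counted in every library: genes for vesicle membrane proteins, calcium sensors, SNARE proteins and their regulators, Rab3 proteins, active zone scaffolds and vesicle recycling. The rule uses no measured value, although it was written with earlier results of these data known, and all 40 passed the filter on low counts in every fit. The libraries came from the dorsal striatum of adult mice of the line Drd1-TRAP CP73, in which an EGFP-tagged ribosomal protein L10a is driven by the Drd1 gene's regulatory sequence on a bacterial artificial chromosome. The tag allows ribosomes of cells that express the dopamine D1 receptor, chiefly the medium spiny neurons of the direct pathway, to be pulled down with antibodies to EGFP, so that the RNA they carry can be sequenced. Mice had intravenous self-administration of cocaine or saline with long access, and the labels divide the cocaine animals into escalating and nonescalating. The word extended is in the labels of most groups, but not in those of the escalating 1 month libraries, the second run of nonescalating 1 month libraries described next, or the inputs.

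Every animal carried the same transgene on an FVB/N-Swiss Webster background crossed for at least 9 generations to C57BL/6. The purified libraries were 4 escalating, 11 nonescalating and 5 saline taken about 1 month after self-administration, and 5 escalating, 9 nonescalating and 5 saline taken 24 hours after it. Another 2 libraries were saline inputs, made from striatal RNA without purification, for which the labels give no time. The replicate numbers of the nonescalating groups start again at 1 partway through, giving a first and a second run of numbers (6 and 5 libraries at 1 month, 6 and 3 at 24 hours). Nothing in the labels ties a library to a single mouse, and the p-values therefore reflect differences among libraries, which may be technical.

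Neurotransmitter is stored in synaptic vesicles that dock at the active zone of the presynaptic membrane. A vesicle SNARE pairs with SNAREs of the plasma membrane, calcium binding to synaptotagmin triggers fusion, and clathrin and dynamin then recover the membrane. Direct pathway medium spiny neurons release GABA from axons in the substantia nigra and internal pallidum and from local collaterals in the striatum, while the messenger RNA for the release machinery lies mainly in their cell bodies. The glutamatergic and dopaminergic axons that end in the striatum have their cell bodies elsewhere.

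Library totals ran between 5394332 and 23925655 assigned counts, with a median of 11340272. The purified RNA was checked against markers in the saline libraries. Drd1 was higher in purified RNA than in input by 0.84 ± 0.22 on the log2 scale (SE, edgeR adjusted p = 0.0444), and Drd2, which marks the other class of medium spiny neuron, was lower by a log2 change of -3.00 ± 0.34 (edgeR adjusted p = 0.000268). The 8 astrocyte markers summed to between 149 and 1134 CPM (counts in 1e6 after scaling) in purified saline libraries and to 1849 and 2167 CPM in the inputs. Not every list of markers for other cells was lower in purified RNA. The 7 endothelial and mural markers summed to 7.96 to 1417 CPM in purified saline libraries, highest in saline 24 h replicate 5, and to 36.3 and 33.5 CPM in the inputs, and the 8 cortical glutamatergic markers to 374 to 718 CPM and to 428 and 327 CPM, though no marker of either list passed the test. The part of these cells in the comparisons was not tested. One library stood apart: saline 24 h replicate 5 had the lowest total, 5394332 counts, and 42.3% of its fragments fell in no annotated feature, against at most 30.8% in the other purified libraries. The log2 ratios of the 40 genes to their mean over the 39 purified libraries had an SD of 1.25 in that library, and at most 0.583 in any other. Among the 40 genes, calls by the main edgeR fits are also given without it, as counts or log2 changes. Most calls by alternative methods or of other genes are not.

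Promoter sequence is shown for the pair of genes that carried a match to the RE1 element, the binding sequence of the repressor REST, which keeps many neuronal genes silent in other cells. Both genes recur in the comparisons of time and treatment, but several of those comparisons share the same 5 saline 24 h libraries. RefSeq windows of GRCm38.p6, running 250 bases before to 50 after each gene's start, were available for 31 of the 40 genes and numbered 39. The RE1 motif of 21 letters, searched on both strands with up to 3 mismatches, was found in 2 of those 39 windows (5.13%) and in 31 of 32851 windows of all genes (0.0944%). The 250 bases before the RefSeq start are printed 5′ to 3′ along the gene's strand, with the RE1 match in capitals. The GENCODE positions used elsewhere in the text start further upstream. By them the Rph3a stretch lies wholly, and the Syn1 stretch partly, inside the gene.
Syn1, chrX:20920919-20921168, minus strand: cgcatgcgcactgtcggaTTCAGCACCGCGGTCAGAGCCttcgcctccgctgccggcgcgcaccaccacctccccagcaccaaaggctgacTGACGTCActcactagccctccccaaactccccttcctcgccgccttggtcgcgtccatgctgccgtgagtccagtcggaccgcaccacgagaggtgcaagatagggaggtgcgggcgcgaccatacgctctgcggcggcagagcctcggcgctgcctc
Rph3a, chr5:121009539-121009788, minus strand: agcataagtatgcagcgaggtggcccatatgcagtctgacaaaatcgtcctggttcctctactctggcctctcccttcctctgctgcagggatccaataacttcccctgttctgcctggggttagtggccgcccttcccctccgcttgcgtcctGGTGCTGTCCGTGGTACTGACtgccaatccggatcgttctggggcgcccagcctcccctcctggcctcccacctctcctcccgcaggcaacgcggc
The Syn1 match differed from the motif at 1 base, and its second run of capitals is the cyclic AMP response element TGACGTCA, whose letters were in 2 of the 39 windows (5.13%) and in 1.79% of all windows. The Rph3a match lay on the opposite strand, differed at 3 bases and came from 1 of that gene's 3 listed starts. The GC box GGGCGG, searched on both strands, was in 23 of the 39 windows (59.0%) and in 35.7% of all windows, and TATAAA was in 3 of 39 (7.69%) and in 13.6%. These are descriptions of the letters, and binding was not measured.

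Compared per kilobase of merged exon, the plasma membrane SNARE Snap25 was by far the most abundant of the 40 in purified saline RNA. It averaged 1275 ± 451 CPM per kilobase in the 10 purified saline libraries (SD) and 544 CPM per kilobase in the 2 inputs. Cplx2, a complexin that binds assembled SNAREs, followed at 531 ± 85.8 and Vamp2, the vesicle SNARE, at 414 ± 69.8 CPM per kilobase in purified RNA. Those last levels differed by less than their spread, as did most neighbours further down the order. At the other end, Rims3, a short member of the RIM family, had 0.763 ± 0.458, Vamp1 1.40 ± 0.675 and Stx1a, syntaxin 1A, 7.86 ± 3.22 CPM per kilobase in purified saline RNA.

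**Figure D1:**
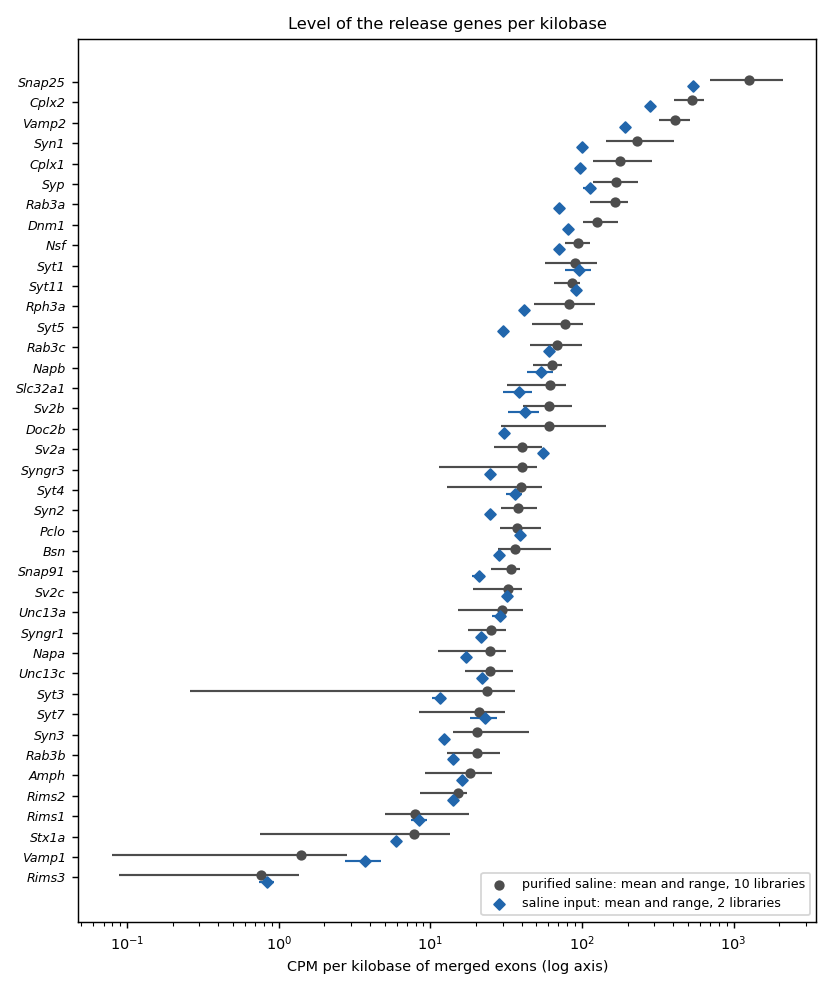
Mean level of each of the 40 genes in CPM per kilobase of merged exon (log axis), with lines between the lowest and highest library, in the 10 purified saline libraries and the 2 saline inputs. Snap25 is highest at 1275 CPM per kilobase and Rims3 lowest at 0.763 CPM per kilobase in purified saline RNA.

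In the VAMP, synapsin and Rab3 families 1 member stood well above its relatives per kilobase of merged exon. The vesicle SNARE Vamp2 stood at 414 CPM per kilobase in purified saline RNA, against 1.40 for its relative Vamp1. Among the synapsins, which tether vesicles in the reserve pool, Syn1 averaged 231 ± 84.6, Syn2 37.8 ± 7.12 and Syn3 20.5 ± 9.30 CPM per kilobase (SD, n = 10). Rab3a, the main vesicle GTPase of the Rab3 group, had 166 ± 27.2, Rab3c 68.5 ± 14.9 and Rab3b 20.4 ± 4.94 CPM per kilobase. The order of Rab3a and Rab3c depended on length. Before division by merged exons of 2226 and 12049 bases, Rab3a averaged 369.5 CPM and Rab3c 824.7 CPM, the reverse order. Per kilobase, the ranges of mean ± SD did not overlap within any of these 3 families.

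Members of the SV2 and Unc13 families lay closer together per kilobase. The SV2 vesicle glycoproteins had 60.8 ± 14.5 CPM per kilobase for Sv2b, 40.2 ± 7.37 for Sv2a and 32.5 ± 6.47 for Sv2c in purified saline RNA, where neighbours in that order lay within their spread. The vesicle-priming factors Unc13a and Unc13c had 29.8 ± 7.77 and 24.8 ± 5.34 CPM per kilobase, within their spread. Syt1, the calcium sensor of fast release, had 90.7 ± 18.2, against 39.9 ± 11.3 CPM per kilobase for Syt4. The ranges of mean ± SD of this pair did not overlap. Of the RIM scaffolds of the active zone, Rims2 had 15.2 ± 2.49, Rims1 7.92 ± 3.62 and Rims3 0.763 ± 0.458 CPM per kilobase. Those ranges did not overlap either.

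In the saline animals, 8 of the 40 genes were higher in purified RNA than in input, and none was lower, by edgeR's quasi-likelihood test with an adjusted p under 0.05. Over all 15305 genes tested, 1.84% were called higher and 2.81% lower. They were Rab3a, Vamp2, Syt5, Syn1, Cplx2, Rph3a, Snap25 and Snap91. After scaling, the 40 genes together summed to 19800 to 34460 CPM in purified saline libraries at 24 hours and to 19930 to 26830 CPM at 1 month. The inputs had 14980 and 15630 CPM. In bulk RNA, fewer cells of a type and less RNA per cell cannot be told apart.

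Of the vesicle membrane and vesicle-associated genes, Syn1 passed. Syn1 had 541, 711, 478, 545 and 491 CPM in purified saline 1 month libraries and 832, 819, 1333, 764 and 1100 CPM in purified saline 24 h libraries, against 336 and 321 CPM in the inputs. Every purified library lay above both inputs, and the log2 change was 1.18 ± 0.23 (SE, edgeR adjusted p = 0.0124). Syn2, Syn3, synaptophysin (Syp), the vesicular GABA transporter Slc32a1 and Sv2b had log2 changes of 0.64, 0.69, 0.57, 0.68 and 0.53 that did not pass. Sv2a had 161 to 252 CPM in purified saline 1 month libraries and 121 to 208 CPM in purified saline 24 h libraries, against 250.9 and 262.1 CPM in the inputs, a log2 change of -0.45 ± 0.20 (SE) that did not pass (edgeR adjusted p = 0.259). Sv2c (0.02), and the synaptogyrins Syngr1 (0.23) and Syngr3 (0.69), did not pass either.

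Of the 7 calcium sensors and synaptotagmins, Syt5 passed. Syt5 had 112 to 242 CPM over the 10 purified saline libraries, against 67.7 and 76.4 CPM in the inputs, without overlap, and its log2 change was the highest of the 40 at 1.37 ± 0.27 (SE, edgeR adjusted p = 0.0117). The main fast sensor Syt1 did not share this. It had 475 to 1056 CPM in purified saline libraries, against 954 and 649 CPM in the inputs, and a log2 change of -0.07 ± 0.23 (edgeR adjusted p = 0.939). Syt4 (0.16), Syt7 (-0.10), Syt11 (-0.07), Syt3 (1.06 ± 0.83) and the soluble sensor Doc2b (0.96 ± 0.41) did not pass, and Doc2b and Syt3 had their most distant purified values, 626 and 0.81 CPM, in saline 24 h replicate 5.

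The SNAREs Vamp2 and Snap25 passed. Vamp2 had 1587, 1730, 1414, 1821 and 1222 CPM in purified saline 1 month libraries and 1352, 1498, 1898, 1284 and 1971 CPM in purified saline 24 h libraries, against 684 and 774 CPM in the inputs, a log2 change of 1.14 ± 0.21 (SE, edgeR adjusted p = 0.0089). Snap25 had 6824, 8953, 7053, 7388 and 5868 CPM at 1 month and 10980, 12540, 14370, 4767 and 7828 CPM at 24 hours in purified saline RNA, against 3961 and 3430 CPM in the inputs, a log2 change of 1.23 ± 0.32 (edgeR adjusted p = 0.0401). Neither gene's purified and input libraries overlapped, although the lowest Snap25 value, 4767 CPM, was in saline 24 h replicate 5. Vamp1 ran the other way in its mean, with 0.81 to 28.6 CPM in purified saline libraries against 27.8 and 48.3 CPM in the inputs, a log2 change of -1.39 ± 0.63 that did not pass (edgeR adjusted p = 0.253). Stx1a had a log2 change of 0.40 ± 0.62.

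Among the proteins that regulate and take apart SNARE complexes, Cplx2 had 1987 to 3159 CPM over the purified saline libraries, against 1329 and 1455 CPM in the inputs, a log2 change of 0.93 ± 0.20 (SE, edgeR adjusted p = 0.0175). Cplx1 had a log2 change of 0.88 ± 0.26 and the disassembly ATPase Nsf one of 0.45 ± 0.16, without overlap between purified and input libraries, but neither passed (edgeR adjusted p = 0.0719 and 0.138). The Nsf adaptors Napa (0.54) and Napb (0.24) did not pass.

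Of the Rab3 group, Rab3a and its effector rabphilin (Rph3a) passed. Rab3a had 402, 423, 407, 447 and 323 CPM at 1 month and 252, 299, 371, 374 and 397 CPM at 24 hours in purified saline RNA, against 149 and 164 CPM in the inputs, a log2 change of 1.26 ± 0.21 (SE, edgeR adjusted p = 0.00496). Rph3a had 224 to 563 CPM over the purified saline libraries, against 202 and 182 CPM in the inputs, a log2 change of 0.96 ± 0.22 (edgeR adjusted p = 0.0215). Both genes were above the inputs in every purified saline library. Rab3b (0.56 ± 0.30) and Rab3c (0.19 ± 0.23) did not pass.

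None of the 7 active zone and priming genes passed, and their median log2 change was 0.07. Rims1, Rims3 and the giant scaffold Pclo had log2 changes of -0.09, -0.16 and -0.06, and Rims2, Unc13a, Unc13c and the second giant scaffold Bsn had 0.11, 0.07, 0.19 and 0.37. Of the 3 endocytosis genes, Snap91, the clathrin assembly protein AP180, had 230 to 358 CPM over the purified saline libraries, against 210 and 173 CPM in the inputs, a log2 change of 0.72 ± 0.19 (SE, edgeR adjusted p = 0.0471). The fission GTPase dynamin (Dnm1) had 0.66 ± 0.19 (edgeR adjusted p = 0.0645) and amphiphysin (Amph) 0.17.

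**Figure D2:**
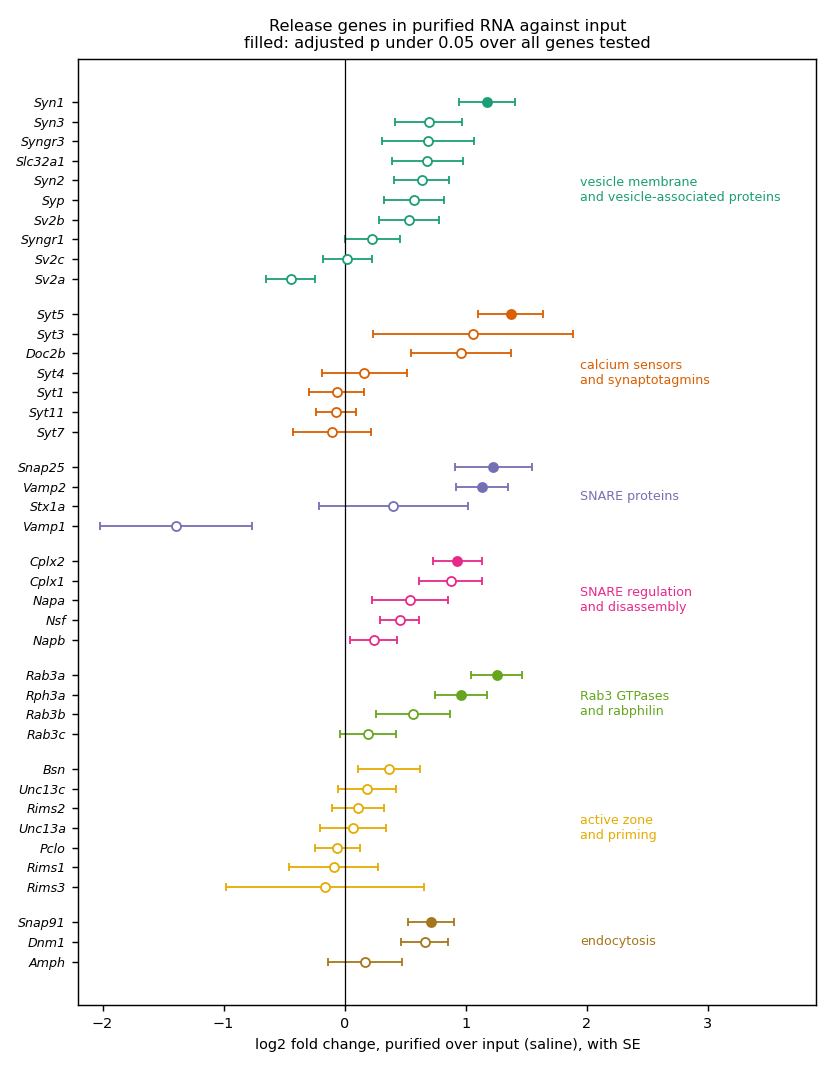
Log2 change, purified over input in saline animals, of each of the 40 genes with its SE (bars), grouped by role; filled points passed the adjusted p of 0.05. The 8 filled points lie between 0.72 and 1.37, and the active zone genes lie near 0.

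Across the 40 genes 32 of the log2 changes were positive, with a median of 0.49, while over all 15305 genes 49.4% were positive and the median was -0.01. Without overlap between the 10 purified and 2 input libraries, 13 of the 40 were higher (5.95% of all genes) and none lower (11.3%). An unadjusted p under 0.05 gave 17 higher (8.22%) and 2 lower (10%), Vamp1 and Sv2a.

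The calls depended on the 2 inputs and on 1 purified library. Without either one of the inputs no member passed, where the remaining input was assumed to vary like the other groups. Without saline 24 h replicate 5, 16 were higher and 1, Vamp1, was lower. With the purified saline libraries of 1 month alone 17 were higher and 1 lower, and with those of 24 h alone none passed. The shares of all genes called in these runs are not given here. The counts therefore do not show whether members changed more than other genes.

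Other genes of the presynaptic terminal, listed by role with the members known, were compared in the same way. None of 22 other SNARE and fusion genes and none of 20 other active zone genes passed in purified against input RNA. Of 16 genes of the vesicle proton pump, which fills vesicles with transmitter, Atp6v0c and Atp6v1g2 were higher, by 1.63 ± 0.27 and 1.24 ± 0.21 on the log2 scale (SE, edgeR adjusted p = 0.00481 and 0.00512). Of 25 other endocytosis genes, the adaptor subunit Ap2m1 was higher by 1.17 ± 0.19 (edgeR adjusted p = 0.00457). Of 18 other vesicle membrane genes, those for the vesicular transporters of glutamate type 3 (Slc17a8) and of acetylcholine (Slc18a3) were lower. Slc17a8 had at most 2.15 CPM in any purified saline library, against 28.5 and 14.3 CPM in the inputs. Slc18a3 had no count in any purified saline library but 1, which had 0.0907 CPM, against 12.3 and 9.70 CPM in the inputs.

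The comparison of time in saline animals gave the only other calls among the 40 genes by this test. Syn1 and Syn3 were lower at 1 month than at 24 hours, 2 of 40, where 0.599% of 15190 genes were called lower and 0.244% higher by edgeR's quasi-likelihood test. None of the 40 was higher. Over the 40 genes the median log2 change was -0.03, and over all genes -0.02.

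Syn1 had 541, 711, 478, 545 and 491 CPM in saline 1 month libraries, against 832, 819, 1333, 764 and 1100 CPM in saline 24 h libraries. Every 1 month library lay under every 24 h library, and the log2 change was -0.81 ± 0.20 (SE, edgeR adjusted p = 0.0372). Syn3 had 173, 184, 179, 200 and 182 CPM in saline 1 month libraries, against 234, 305, 551, 228 and 281 CPM in saline 24 h libraries. These did not overlap either, the 24 h group holding 1 library far above its other 4, and the log2 change was -0.80 ± 0.21 (edgeR adjusted p = 0.0481).

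Syn1 lies at chrX:20860511-20921004 and Syn3 at chr10:86055125-86498896 of GRCm38, both on the minus strand. Each overlaps a gene of the Timp family on the other strand, Timp1 and Timp3. So does Syn2, which was not called here, with Timp4. Whether fragments were counted by strand was not stated, so how fragments from overlapping stretches were assigned is not known. By whole spans, introns included, 24 of the 40 genes overlap a gene on the opposite strand. Whether exons overlap was not examined.

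Rph3a was the third member that was lower without overlap (1.03% of all genes). It had 327, 236, 303, 329 and 224 CPM in saline 1 month libraries, against 563, 498, 539, 389 and 408 CPM in saline 24 h libraries. Its log2 change of -0.75 ± 0.20 (SE) missed the threshold (edgeR adjusted p = 0.0562). An unadjusted p under 0.05 held for 8 members lower (9.26% of all genes) and 1 higher (7.11%), Slc32a1 at 0.46 ± 0.20. Doc2b had -0.68 ± 0.22, with 626 CPM in saline 24 h replicate 5 and 127 to 380 CPM in the other 4 saline 24 h libraries, and without that replicate its log2 change was -0.30 ± 0.18 (edgeR adjusted p = 0.46).

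**Figure D3:**
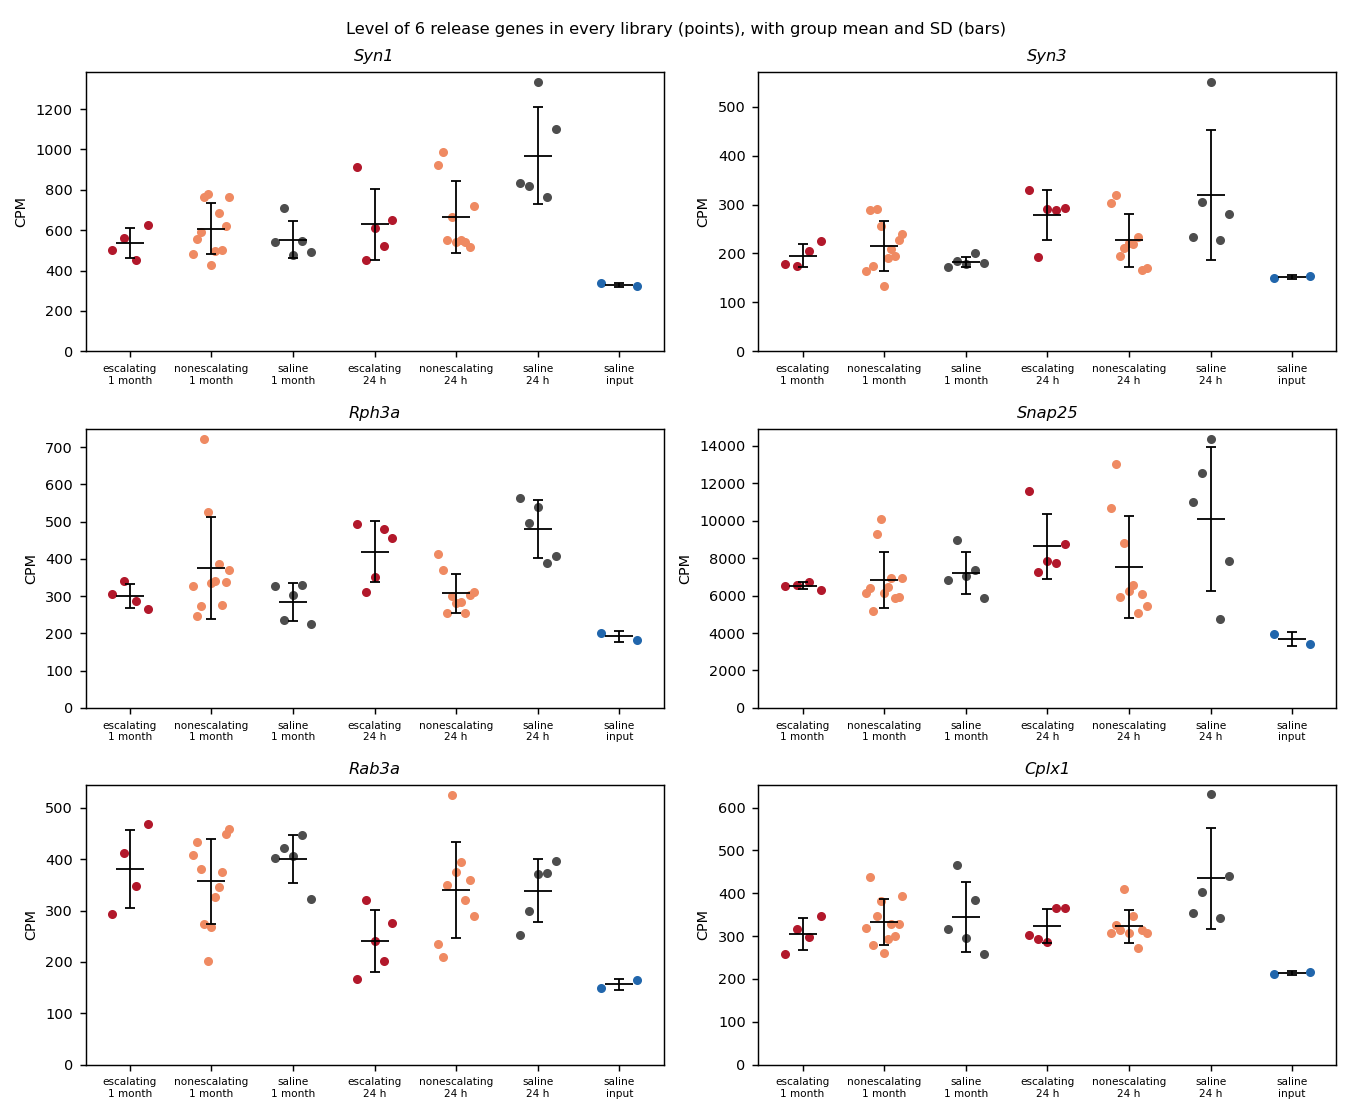
Level in CPM of Syn1, Syn3, Rph3a, Snap25, Rab3a and Cplx1 in each library, by group, with the group mean and SD as bars. The 5 saline 24 h libraries lie above the 5 saline 1 month libraries for Syn1, Syn3 and Rph3a. The 2 inputs lie under every purified saline library for all 6 genes, while 1 nonescalating 1 month library, at 133 CPM of Syn3, lies under them.

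The synapsin calls rested on few libraries. Without saline 24 h replicate 3, the highest for both genes, neither passed, with log2 changes of -0.67 for Syn1 and -0.51 for Syn3, and leaving out any 1 of the 5 saline 1 month libraries also left no member called. Without saline 24 h replicate 5, the calls, given without the share of all genes, were Syn1 (-0.89), Syn3 (-0.90) and Rph3a (-0.82). Beside these values, the astrocyte markers summed to 165 to 349 CPM in saline 1 month libraries, against 149 to 1134 CPM in saline 24 h libraries, and the 7 markers of D1 neurons to 1964 to 2388 CPM, against 1882 to 2847 CPM. The 10 interneuron markers summed to 24.3 to 47.3 CPM in saline 1 month libraries, against 17.7 to 166 CPM in saline 24 h libraries. Their highest sum was in saline 24 h replicate 3, the library with the highest Syn1 and Syn3, where somatostatin (Sst) alone had 132.9 CPM. The 7 endothelial and mural markers summed to 32.7 to 691 CPM in saline 1 month libraries, against 7.96 to 1417 CPM in saline 24 h libraries, and the 8 cortical glutamatergic markers to 374 to 718 CPM, against 387 to 658 CPM. The part of these cells in the result was not tested.

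Among 25 other endocytosis genes, 1 was higher in saline at 1 month than at 24 hours. Hspa8, the chaperone that uncoats clathrin-coated vesicles, had 1659, 1486, 1558, 1920 and 1102 CPM in saline 1 month libraries, against 1053, 1183, 1251, 610.8 and 883.6 CPM in saline 24 h libraries. The groups overlap, with 1 saline 1 month library inside the range of the saline 24 h libraries. Its log2 change was 0.64 ± 0.17 (SE, edgeR adjusted p = 0.0481), and the result without saline 24 h replicate 5 is not given here.

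In animals that had taken cocaine, no member was called between the times. Nonescalating animals had 0 of 40 in each direction, with 0% of all genes called by edgeR, and an unadjusted p under 0.05 gave 1 higher and 1 lower (1.38% of all genes each way). Syn1 averaged 607 ± 126 CPM in the 11 nonescalating 1 month libraries and 667 ± 179 CPM in the 9 nonescalating 24 h libraries (SD), a log2 change of -0.14 with a 95% interval of -0.42 to 0.14. The members with the lowest p were Sv2b (-0.26 ± 0.11), Vamp1 (0.78 ± 0.35) and Rph3a (0.28 ± 0.14), each with an edgeR adjusted p of 1.00. The Vamp1 value was 1.27 with the first run of libraries and 0.00 with the second. DESeq2 called none of the 40 here, and none in escalating animals.

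Escalating animals likewise had 0 of 40 called between 1 month and 24 hours, with 0% of all genes called by edgeR. Rab3a had 294, 413, 347 and 468 CPM in escalating 1 month libraries, against 167, 320, 240, 202 and 276 CPM in escalating 24 h libraries, which overlap at 1 library each, and a log2 change of 0.65 ± 0.22 (SE, edgeR adjusted p = 0.899). Rab3b had 72.6, 106, 78.7 and 91.7 CPM, against 56.1, 65.2, 50.7, 56.6 and 51.1 CPM, a log2 change of 0.63 ± 0.22 (edgeR adjusted p = 0.899), and these did not overlap. Syn3 had a log2 change of -0.52 ± 0.22 (edgeR adjusted p = 0.899). Rab3b and Syngr3 were higher without overlap (2.52% of all genes), and Sv2b, Syt1, Snap25 and Rab3c were lower without overlap (2.31%). An unadjusted p under 0.05 gave 3 higher (2.65%) and 6 lower (2.85%).

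At 24 hours after self-administration, none of the 40 genes was called in escalating or nonescalating animals against saline animals. The 2 comparisons share the 5 saline libraries. By edgeR 0% of 13437 genes passed in either, while an unadjusted p under 0.05 held for 6 members lower in escalating (6.88% of all genes) and 6 in nonescalating animals (7.67%), and for 0 (3.78%) and 1 (4.25%) higher. The median log2 change of the 40 was -0.14 in escalating and -0.02 in nonescalating animals, against -0.04 and -0.01 over all genes.

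In escalating animals at 24 hours, Syn1 had 911, 451, 612, 521 and 651 CPM, against 832, 819, 1333, 764 and 1100 CPM in saline animals. Only replicate 1 of the escalating group reached the range of the saline libraries, and the log2 change was -0.63 ± 0.21 (SE, edgeR adjusted p = 0.354). Vamp2 had 1200, 1248, 1243, 1248 and 1262 CPM in escalating animals, against 1352, 1498, 1898, 1284 and 1971 CPM in saline animals, the only member that was lower without overlap (0.506% of all genes). Its log2 change was -0.37 ± 0.14 (edgeR adjusted p = 0.37). Cplx1 had 302, 294, 286, 365 and 367 CPM in escalating animals, against 355, 404, 631, 342 and 441 CPM in saline animals, a log2 change of -0.43 ± 0.16 (edgeR adjusted p = 0.37). DESeq2 called none of the 40 in escalating animals, and without saline 24 h replicate 5 the log2 changes of Syn1, Vamp2 and Cplx1 were -0.69, -0.43 and -0.50, each with an edgeR adjusted p of 0.354.

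In nonescalating animals at 24 hours, Rph3a had a lowest, median and highest value of 254, 300 and 413 CPM, against 563, 498, 539, 389 and 408 CPM in saline animals. A single nonescalating library reached the saline range, and the log2 change was -0.64 ± 0.14 (SE, edgeR adjusted p = 0.172). It was -0.60 with the first and -0.71 with the second run of nonescalating libraries, and -0.70 without saline 24 h replicate 5. Cplx1 (272, 314 and 411 CPM) and Syn1 (514, 552 and 990 CPM) had log2 changes of -0.43 ± 0.14 and -0.54 ± 0.18 (edgeR adjusted p = 0.221 and 0.248). DESeq2 called 1 member, Rph3a, in nonescalating animals (DESeq2 adjusted p = 0.014), and so did edgeR with all purified libraries in 1 fit (edgeR adjusted p = 0.0446). The share of all genes called by either alternative is not given here.

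With all 14 cocaine libraries at 24 hours in 1 group against saline, 0 of 40 were called, and 0.0447% of all genes were lower by edgeR. An unadjusted p under 0.05 gave 6 members lower (9.37%) and 1 higher (4.34%). The lowest p values belonged to Syn1 (-0.59 ± 0.17), Cplx1 (-0.43 ± 0.13) and Rph3a (-0.42 ± 0.13), with edgeR adjusted p values of 0.141, 0.143 and 0.171. DESeq2 called Cplx1 (DESeq2 adjusted p = 0.0447), and edgeR with all purified libraries in 1 fit called Syn1 (-0.58) and Doc2b (-0.60). Without saline 24 h replicate 5 that fit gave Syn1 -0.66 (edgeR adjusted p = 0.0495) and Doc2b -0.22 (edgeR adjusted p = 0.543). The shares of all genes called by these alternatives are not given here.

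**Figure D4:**
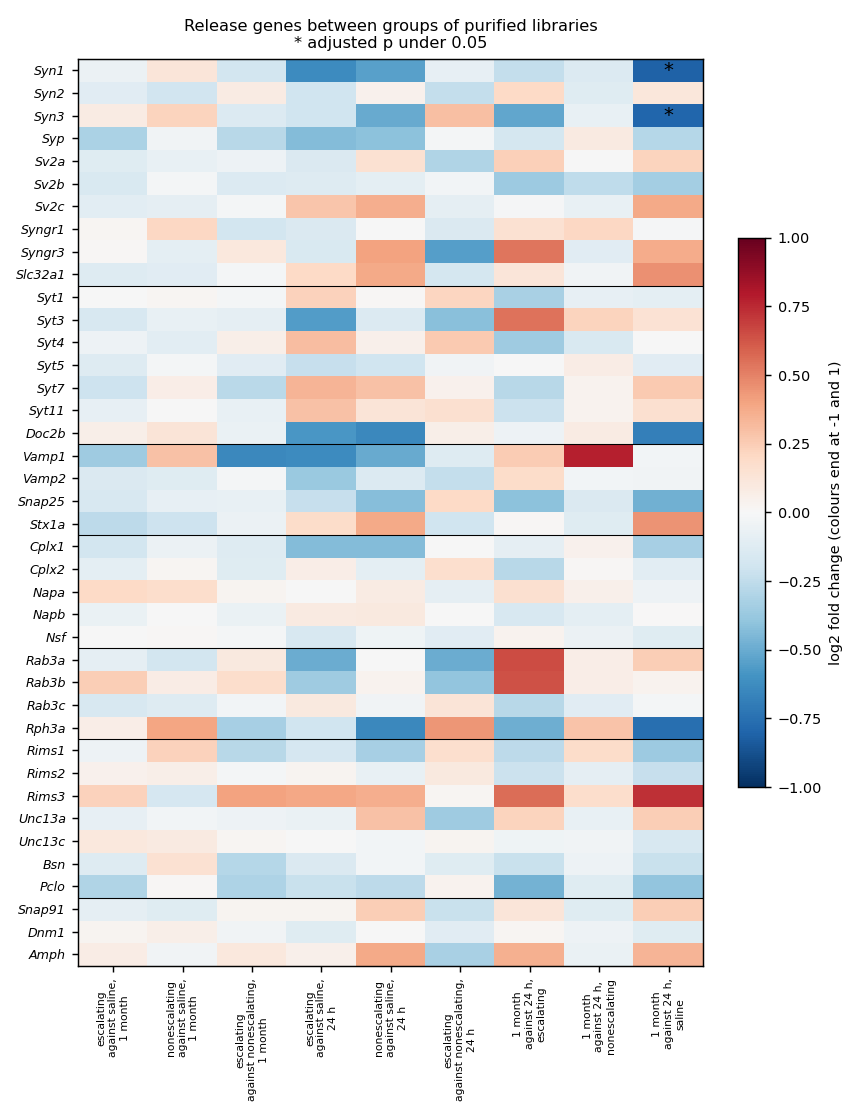
Log2 change of each of the 40 genes (rows, by role) in the 9 comparisons between groups of purified libraries (columns); an asterisk marks an edgeR adjusted p under 0.05. Asterisks stand at Syn1 and Syn3 for saline 1 month over 24 h, and nowhere else.

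Escalating against nonescalating animals at 24 hours had 0 of 40 called, with 0% of all genes called by edgeR, and an unadjusted p under 0.05 for 1 higher (1.81%) and 2 lower (2.19%). Rph3a had 495, 312, 352, 481 and 457 CPM in escalating animals, against a lowest, median and highest of 254, 300 and 413 CPM in nonescalating animals, a log2 change of 0.44 ± 0.14 (SE, edgeR adjusted p = 0.999). The groups overlap, with 3 escalating libraries above every nonescalating one. Rab3a had 167, 320, 240, 202 and 276 CPM, against 209, 350 and 525 CPM, and a log2 change of -0.50 ± 0.19. Syngr3 had a log2 change of -0.55 ± 0.25 (edgeR adjusted p = 0.999 for both). DESeq2 called none of the 40.

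At 1 month none of the 40 was called in escalating, nonescalating or all cocaine animals against saline, or in escalating against nonescalating animals. By edgeR 0% of 14488 genes passed in each, and an unadjusted p under 0.05 held for 1, 0, 0 and 1 members lower (0.69, 1.98, 1.35 and 0.745% of all genes in that order) and for none higher (0.6, 1.62, 0.842 and 0.476%). DESeq2 called none of the 40 in these 4 comparisons.

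The members with the lowest p at 1 month all had groups that overlapped. In escalating against saline animals, synaptophysin (Syp) had 689, 610, 567 and 670 CPM, against 734, 1079, 619, 651 and 822 CPM, a log2 change of -0.31 ± 0.15 (SE, edgeR adjusted p = 1.00) with overlap. Pclo had -0.30 ± 0.20 and Rab3b 0.25 ± 0.19 there. In nonescalating against saline animals, Rph3a had a lowest, median and highest of 246, 339 and 723 CPM, against 327, 236, 303, 329 and 224 CPM, a log2 change of 0.40 ± 0.19 (edgeR adjusted p = 0.999). Rims1 had 0.23 ± 0.14 and Syn2 -0.19 ± 0.13.

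With all cocaine animals at 1 month together against saline, the lowest p values belonged to Syp (-0.17 ± 0.12), Napa (0.19 ± 0.14) and Vamp2 (-0.14 ± 0.11). In escalating against nonescalating animals they belonged to Syp (-0.28 ± 0.13), Pclo (-0.31 ± 0.17) and Rims1 (-0.28 ± 0.16). Every one had an edgeR adjusted p of 1.00. Syn1, with the lowest p for all cocaine against saline at 24 hours, had 499, 560, 454 and 627 CPM in escalating, a lowest, median and highest of 426, 591 and 781 CPM in nonescalating, and 541, 711, 478, 545 and 491 CPM in saline animals at 1 month, all overlapping.

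Whether the difference between cocaine and saline animals itself differed between 1 month and 24 hours was tested as an interaction. It uses the same saline 24 h libraries as the comparisons above. None of the 40 passed, and 0.0132% of all genes were called higher and 0% lower by edgeR. Doc2b (0.70 ± 0.26), Rph3a (0.65 ± 0.24) and Syn1 (0.61 ± 0.23) had the lowest p values, with edgeR adjusted p values of 0.293, 0.294 and 0.304. Without saline 24 h replicate 5 the Doc2b value was 0.32. An unadjusted p under 0.05 gave 4 members higher (6.1%) and 0 lower (4.74%), and DESeq2 called none of the 40.

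**Figure D5:**
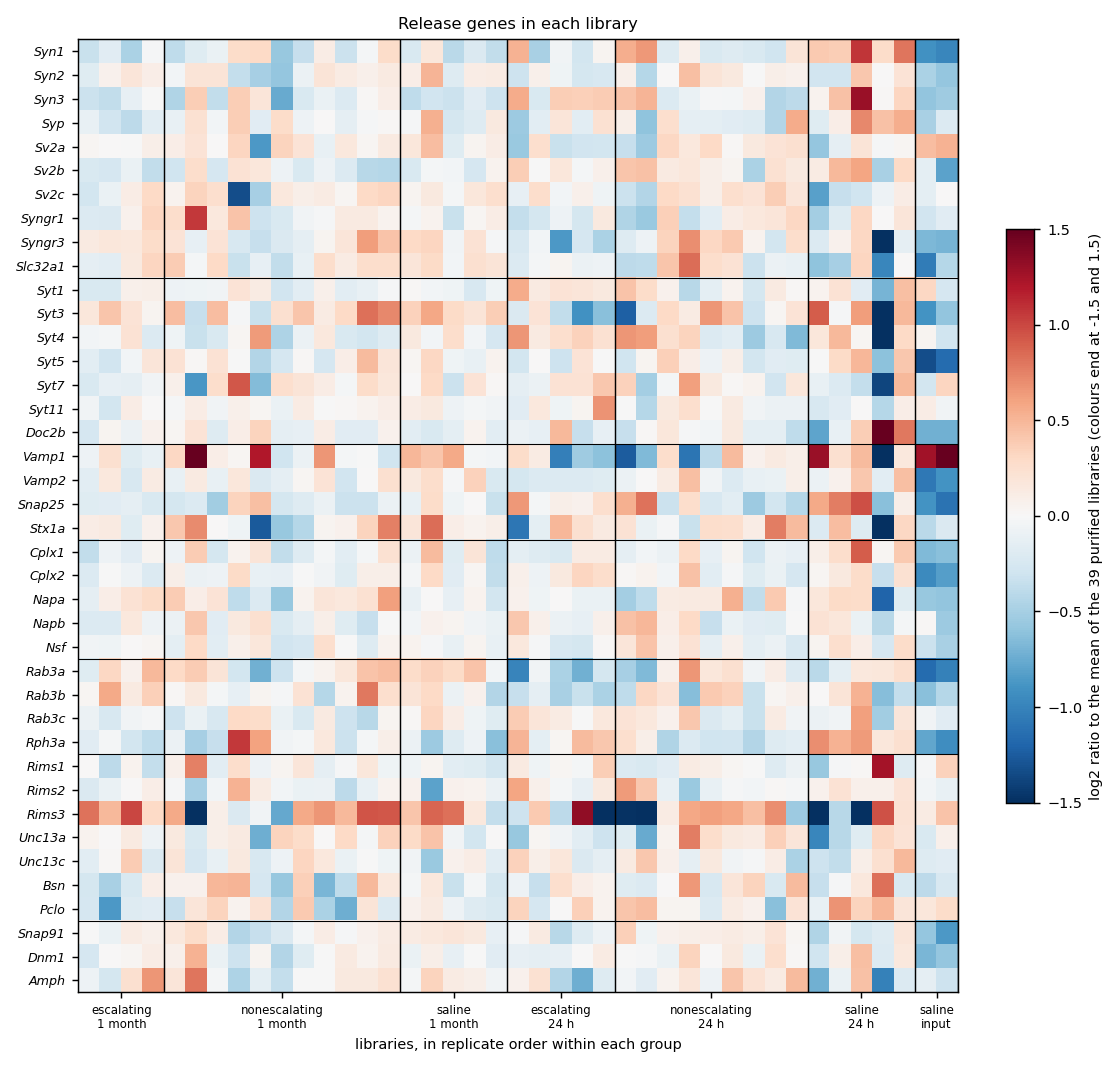
Log2 ratio of each of the 40 genes (rows, by role) to its mean over the 39 purified libraries, in all 41 libraries (columns, by group). The column of saline 24 h replicate 5 departs most, with an SD of 1.25 over the 40 genes, and the 2 input columns are mostly below 0.

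Some libraries departed from the rest of their group in several members at once, and the genes given here were chosen after their values were seen. In the nonescalating 24 h group, replicates 1 and 2 of the first run had the highest Snap25 of the 9 libraries, 10660 and 13020 CPM, and also the highest Syn1 (925 and 990 CPM), Syn3 (304 and 319 CPM) and Rph3a (413 and 369 CPM). They had the lowest Sv2c, 262 and 242 CPM, against 348 to 423 CPM in the other 7, and the lowest Slc32a1, 134 and 135 CPM, against 140 to 314 CPM. In the escalating 24 h group, replicate 1 had the highest Snap25 (11570 CPM), Syn1 (911 CPM), Syn3 (330 CPM) and Rph3a (495 CPM) and the lowest Sv2c (301 CPM) and Slc32a1 (153 CPM) of 5.

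Other groups matched this in part. In the nonescalating 1 month group, replicates 4 and 5 of the first run had the highest Snap25 (9316 and 10080 CPM) and Rph3a (722.6 and 526.1 CPM) and the lowest Sv2c (130 and 231 CPM) of 11, but other libraries had Syn1, Syn3 or Slc32a1 values as extreme as theirs. In the saline 24 h group, replicate 3 had the highest Snap25 (14370 CPM), Syn1 (1333 CPM) and Syn3 (551 CPM) of 5, but also the highest Slc32a1 (220.0 CPM), and its Sv2c of 265 CPM was not the lowest. In the saline 1 month group, replicate 2 had the highest Snap25 (8953 CPM) and Syn1 (711 CPM) with a low Rph3a of 236 CPM. What such libraries share was not tested.

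The spread over the 39 purified libraries differed between members. Nsf, Cplx2, Vamp2 and Snap91 were the steadiest by the ratio of highest to lowest library, at 1.64, 1.75, 1.68 and 1.76. Vamp1, Syt3, Rims3 and Stx1a had ratios of 70.1, 141, 32.8 and 17.7, and their lowest values came from saline 24 h replicate 5 with 4, 4 and 10 counts for Vamp1, Syt3 and Stx1a, and from escalating 24 h replicate 5 with 5 counts for Rims3. The ratios of the other 32 genes lay between 1.89 and 5.76.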

How the data were processed

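The RNA of EGFP-tagged ribosomes from the dorsal striatum, and of 2 saline inputs, was sequenced in 41 libraries. Per the submitters' processing notes, STAR 2.0.0e, HTSeq and the build mm10 were used. Which annotation and strand setting HTSeq had was not stated. The deposited files hold raw counts per gene made by the authors, not normalized. The 5 summary lines of each file (fragments in no feature, 15.9 to 42.3% of a library, ambiguous and others) and 1 entry named unknown, with 0 counts, stayed out of totals and tests.

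Groups came from the labels. Replicates were compared, and no pair of libraries agreed within sampling noise. Counts were scaled by TMM, and CPM are counts per 1000000 of the scaled total. Genes passing filterByExpr were tested with edgeR 4.0.16's quasi-likelihood test in R 4.3.3, with Benjamini-Hochberg adjustment over all genes tested and a threshold of 0.05. The comparisons among groups at 24 h were fitted together, as were those at 1 month; the comparisons of time and the interaction used all 6 purified groups; and purified against input used the saline libraries, with the purified libraries of both times weighted equally. Log2 changes are the first-named group over the second. Lengths and positions came from GENCODE M21 on GRCm38, which is mm10, and promoters from RefSeq.

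In each comparison the members called are named, or the 3 with the lowest p where fewer than 3 were called, and of other presynaptic genes those called, except 1 result that is not reported here. Genes in patterns across libraries were named after their values were seen. The members and all lists were chosen with earlier results of these data known. The tests were checked on simulated counts. Alternatives were DESeq2 1.42.0, its size factors in edgeR, library totals alone and, for Syn1 and Doc2b, a fit of all purified libraries without saline 24 h replicate 5 (both added after seeing the data), other filters, other sets of libraries, a replicate block and leaving out single libraries. Precision depends on depth: the lowest counts behind a named value were 4 in saline 24 h replicate 5.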

Additional observations from a re-analysis of the deposited data

Results flagged for a closer look

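In 9 of 105 sets of 1 gene in 1 group of purified libraries, 1 library lay far from the rest by a test for a single outlying value, 8.57%, where chance gives about 5%. These sets covered 20 named genes and their sum in groups of 4 to 10 libraries.

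Among the genes that were lower in saline at 1 month than at 24 h, Syn1 reached 710.7 CPM in saline 1 month replicate 2, against 478.2 to 545.0 CPM in the other 4 libraries. Syn3 reached 550.5 CPM in saline 24 h replicate 3, against 227.9 to 305.0 CPM in the other 4. The Syn3 call was lost without that library.

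The calcium sensor Doc2b reached 308.9 CPM in escalating 24 h replicate 3, against 172.5 to 206.6 CPM in the other 4. It reached 227.2 CPM in saline 1 month replicate 4, against 187.0 to 198.4 CPM in the other 4. In nonescalating 24 h replicate 4 of the first run both Vamp2, at 1968 CPM against 1242 to 1565 CPM, and Cplx2, at 3475 CPM against 2152 to 2669 CPM, were above the other 8 libraries.

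Of the active zone genes, Rims1 reached 132.4 CPM in saline 24 h replicate 5, the library of lowest depth, against 37.21 to 55.96 CPM in the other 4. Pclo had 414.9 CPM in escalating 1 month replicate 2, under the 633.8 to 674.7 CPM of the other 3. The clathrin assembly gene Snap91 had 287.9 CPM in saline 1 month replicate 5, under the 342.8 to 358.2 CPM of the other 4.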

How the results depend on the processing

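No log2 change of a named gene switched sign in the alternative runs where signs were compared. Signs were not compared with library totals alone. For purified against input RNA in saline animals, where 8 members were called, the count was 10 with DESeq2, 7 with its size factors in edgeR, 6 with library totals alone, 7 with no filter and 6 with a mean of at least 5 CPM. It was 0 with the saline 24 h libraries alone and 18 with the saline 1 month libraries alone, and leaving out single libraries gave 0 to 17. The median of all genes was -0.24 under DESeq2, -0.19 under library totals and -0.17 with no filter, and the median of the 40 genes was 0.42, 0.32 and 0.50 there. For saline at 1 month against 24 h, with 2 called, DESeq2 called 4, library totals 0, no filter 0 and a fit of only the groups compared 0, and leaving out single libraries gave 0 to 3. In nonescalating against saline animals at 24 h DESeq2 and a fit of all purified libraries called 1 each, and for all cocaine against saline animals at 24 h they called 1 and 2. Leaving out single libraries gave 0 in every other comparison.

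Whether the replicate numbers pair the libraries is not stated. The deviations of 27 same-numbered pairs from their group means correlated at -0.30 to 0.35, with a median of -0.02. Of these pairs 5 exceeded 0.1, and pairs of unlike number had a median of 0.015. The second run of nonescalating libraries was left out, and the check cannot decide whether some pairs share a batch. With the replicate number as a block, purified against input called 3 members (Cplx2, Snap25 and Vamp2) and saline at 1 month against 24 h called 1 (Rph3a). Leaving out libraries of the nonescalating groups 1 at a time was not run. The 2 inputs, the lowest total of 5394332 counts in saline 24 h replicate 5, and the unknown strand setting limit the values. Member counts in this section are given without the share of all genes called in the same runs. Whether they changed more than the counts over all genes cannot be read from them. The causes of the changed counts were not tested.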
